A study of Mus musculus with 4 samples.

Results

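Il9, the gene of interleukin 9, and 7 transcription factors known to drive it or other type 2 cytokine genes were compared between cultured mouse T cells of 2 kinds, Tc1 and Tc9. The 8 genes (Il9, Irf4, Batf, Spi1, Gata3, Maf, Etv5 and Rbpj) were chosen by name, and each was read from the probe set that the platform annotation pairs with its symbol. They and the gene lists below were chosen with earlier results of these data known. Of the 8, 7 were matched, each by 1 probe set, among 19505 genes tested, and Gata3 was not analysed here. The series holds 4 Affymetrix arrays, 2 from cells grown in a Tc1 cytokine condition and 2 from cells grown in a Tc9 cytokine condition, and its stated aim was to compare their gene expression. The sources used here do not state strain, age, cytokines, culture time or the origin of the cells. The labels do not say if the 2 arrays of a group stem from separate cultures or animals, and the p-values therefore measure only the spread between these samples, which may be technical.

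In T cells, Il9 is switched on by transforming growth factor beta acting through SMAD proteins together with interleukin 4 acting through STAT6, and interleukin 2 acting through STAT5 adds to this. IRF4, BATF bound to a JUN protein, the ETS factor PU.1 (encoded by Spi1) and its relative ETV5 act at the Il9 locus in CD4 helper cells that make interleukin 9. GATA3 and MAF are best known for opening the interleukin 4 locus and for driving interleukin 4 and interleukin 10, and RBPJ carries Notch signals to DNA. CD8 T cells are called Tc1 when they are cytotoxic and secrete interferon gamma, and Tc9 when they secrete interleukin 9.

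The arrays carried the markers of the labelled cells. All 8 measured T cell and CD8 markers, Cd3e, Cd8a and Cd8b1 among them, were above the detection limit on all 4 arrays. This limit, used throughout, is the 95th percentile of the intensities of an array's own negative control probe sets. Below it on all 4 arrays were 9 of 9 myeloid markers, 6 of 6 mast cell and basophil markers, 3 of 3 CD4 T cell markers, 4 of 4 natural killer and gamma-delta T cell markers and 5 of 6 B cell markers (Cd79b exceeded it on 1 array). The deposited arrays fell into pairs by their number, with medians of 37.1 and 37.9 on the arrays numbered 1 and 57.3 and 57.1 on those numbered 2. Each number holds 1 Tc1 and 1 Tc9 array, so every difference is also given within each number. All intensities below are after quantile normalization, all log2 changes are Tc9 minus Tc1 on the log2(intensity + 16) scale, which understates changes of dim genes, and the number of arrays limits the precision.

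The Il9 promoter is shown because IRF4, BATF, PU.1 and ETV5, among the factors compared here, are reported to act at this gene. The sequence is the 250 bases before the start of Il9 in the RefSeq annotation of GRCm38.p6, chr13:56482258-56482507, minus strand, written 5′ to 3′ as the gene is read. Capitals mark matches, on either strand, to the AP-1 site TGACTCA that BATF-JUN dimers bind, to the ETS core AGGAA and to the IRF core AANNGAAA.

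Il9 promoter: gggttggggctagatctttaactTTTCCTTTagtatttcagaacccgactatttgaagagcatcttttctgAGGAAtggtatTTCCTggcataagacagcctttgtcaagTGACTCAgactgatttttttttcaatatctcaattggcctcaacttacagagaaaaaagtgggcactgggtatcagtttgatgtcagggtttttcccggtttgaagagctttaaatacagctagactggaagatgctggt

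The window held 1 AP-1 site, from 140 to 134 bases before the start, as well as 3 ETS cores and 1 IRF core, which overlaps the ETS core farthest from the start. The AP-1 site was present in 4.46% of 32851 RefSeq promoter windows of this length, the ETS core in 60.3% and the IRF core in 21.3%. No match was found to the GATA core AGATAA (present in 9.99% of windows), the RBPJ core GTGGGAA (5.42%) or the MAF element core TGCTGAC (3.81%). The motifs were searched on both strands, and a match to these letters describes the sequence and not a bound site.

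Il9 was higher on both Tc9 arrays than on both Tc1 arrays, at a low signal throughout. Its Tc1 values were 23.4 (number 1) and 26.5 (number 2), and its Tc9 values were 103 and 81.9. The groups did not overlap, and the arrays within each group lay closer together than the groups did. On its own array Il9 exceeded 61.0% and 59.8% of the negative controls in Tc1 and 91.6% and 89.0% in Tc9. It did not reach the detection limit on any array, so the size of its change is uncertain. The log2 change was 1.40 ± 0.24 (SE, n = 2 per group; 95% interval 0.84 to 1.96), with 1.60 and 1.20 within the numbers, and it missed the threshold of 0.05 (limma adjusted p = 0.0682). Without the Tc9 array numbered 1 the log2 change was 1.30, and without that numbered 2 it was 1.48. In those fits the lone Tc9 array is assumed to vary like the Tc1 arrays. With genes under the 25th percentile of intensity left out, Il9 passed (limma adjusted p = 0.0455). In bulk RNA, a smaller number of cells holding a transcript and less transcript per cell cannot be told apart.

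Maf was the member with the largest log2 change and the 1 member that passed the test. Its protein, MAF, is a basic leucine zipper factor that activates interleukin 4, interleukin 10 and interleukin 21 genes in T cells. Its Tc1 values were 49.9 and 22.6, both under the detection limit, and its Tc9 values were 277 and 318, both over it. Maf rose with a log2 change of 2.63 ± 0.31 (SE, n = 2 per group; limma adjusted p = 0.0168), by 2.15 within the arrays numbered 1 and 3.11 within those numbered 2. Measured against the detection limit in place of the Tc1 signal, Maf was at least 1.63-fold higher in Tc9, but with the limit moved to the 99th percentile its Tc9 signal lay under it. The numbers differed more in Tc1, where the array numbered 2 was 0.77 lower on the log2 scale, against 0.19 higher in Tc9. Without the intensity trend in the variance model the call was lost (limma adjusted p = 0.0568).

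Irf4 and Batf, whose proteins bind together at composite DNA elements in activated T cells, were both above the detection limit on all 4 arrays, although Batf lay under the limit at the 99th percentile on each. Irf4 measured 2799 and 2760 in Tc1 and 3203 and 3096 in Tc9. The groups did not overlap, but the step was small beside that of Maf, with a log2 change of 0.18 ± 0.11 (SE; 95% interval -0.080 to 0.44; 0.19 and 0.16 within the numbers; limma adjusted p = 1.00). Batf measured 559 and 565 in Tc1 and 476 and 508 in Tc9. It was the 1 member with a lower signal in Tc9 than in Tc1, with a log2 change of -0.19 ± 0.15 (SE; 95% interval -0.54 to 0.17; -0.22 and -0.15 within the numbers; limma adjusted p = 1.00). The intervals of both genes lie inside a 2-fold change in either direction. They measure only the spread between these arrays, which may be technical.

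The ETS factors Spi1 and Etv5 did not reach the detection limit on any of the 4 arrays. Spi1 encodes PU.1, the master factor of myeloid and B cells, and measured 45.3 and 128 in Tc1 and 62.1 and 147 in Tc9. Its values followed the array number and not the cell type: on the log2 scale the arrays numbered 2 were higher by 1.23 in Tc1 and 1.06 in Tc9, while Tc9 exceeded Tc1 by 0.35 and 0.18 within the numbers. The groups overlapped, and the log2 change was 0.26 ± 0.49 (SE; 95% interval -0.89 to 1.42; limma adjusted p = 1.00). Its sign turned when 1 array was left out, to -0.36 without the Tc1 array numbered 1 and -0.25 without the Tc9 array numbered 2. The 9 myeloid markers were all below the detection limit. Their summed signal was 306 (number 1) and 315 (number 2) in Tc1, and 317 (number 1) and 374 (number 2) in Tc9. Its part in the Spi1 values was not tested. Etv5 measured 41.8 and 52.7 in Tc1 and 69.7 and 88.7 in Tc9. Its groups did not overlap, and it had a log2 change of 0.59 ± 0.25 (SE; 95% interval -0.0048 to 1.18; 0.57 and 0.61 within the numbers; limma adjusted p = 0.948).

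Rbpj, the DNA-binding end point of Notch signalling, had a strong signal in both groups. It measured 2003 and 1817 in Tc1 and 2892 and 2642 in Tc9. Both Tc9 values lay above both Tc1 values, and the 2 numbers gave nearly the same step, 0.53 and 0.54. The log2 change was 0.53 ± 0.12 (SE; 95% interval 0.24 to 0.82), or 1.45-fold. It did not pass with adjustment over all genes (limma adjusted p = 0.225). Rbpj has processed pseudogenes in the mouse, and sharing of signal with them was not examined.

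**Figure D1:**
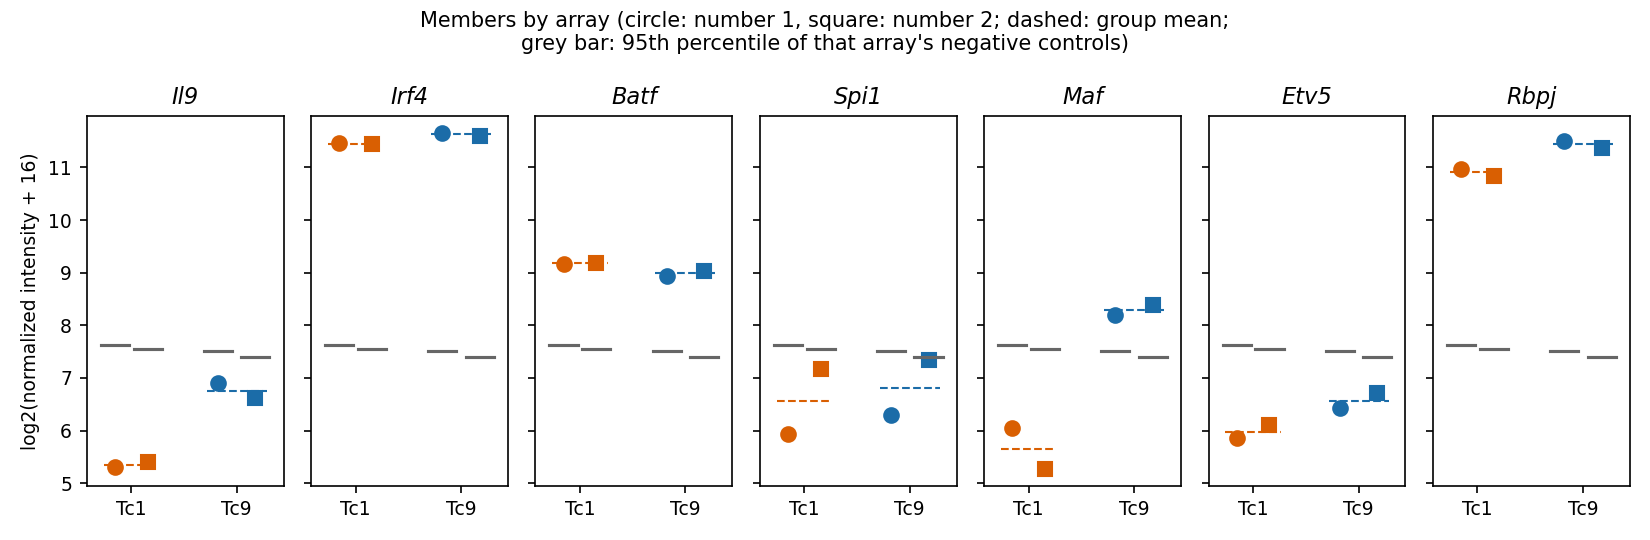
Log2(normalized intensity + 16) of the 7 measured members, with Tc1 in orange and Tc9 in blue, 1 point per array (circle for number 1, square for number 2), dashed lines for group means and grey bars for the 95th percentile of each array's negative controls. Irf4, Batf and Rbpj sit above the grey bars on all 4 arrays, Maf only on the Tc9 arrays, and Il9, Spi1 and Etv5 on none.

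Of the 7 measured members, 1 rose by limma, against 0.385% of all genes tested that rose and 0.564% that changed in either direction. The groups did not overlap for 6 members, 5 of them higher and 1 lower in Tc9, against 29.1% of all genes tested, 14.0% higher and 15.1% lower. The median log2 change of the 7 was 0.53, and that of all genes was -0.0027. At an unadjusted p under 0.05, 3 members were higher (Maf, Il9 and Rbpj) and 0 lower, against 574 higher and 456 lower of the 19505 genes tested.

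With the array number as a block, 5 members passed, all of them higher in Tc9, against 13.7% of all genes tested. Beside Maf these were Il9 (limma adjusted p = 5.01e-15), Rbpj (2.04e-19), Irf4 (0.00573) and Etv5 (0.00635), while Batf (0.201) and Spi1 (0.377) did not pass. That fit keeps every log2 change as it was and leaves 1 residual degree of freedom, with an infinite prior that gives genes of like intensity the same spread. Its p-values rest on that shared spread and not on the spread of each gene.

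**Figure D2:**
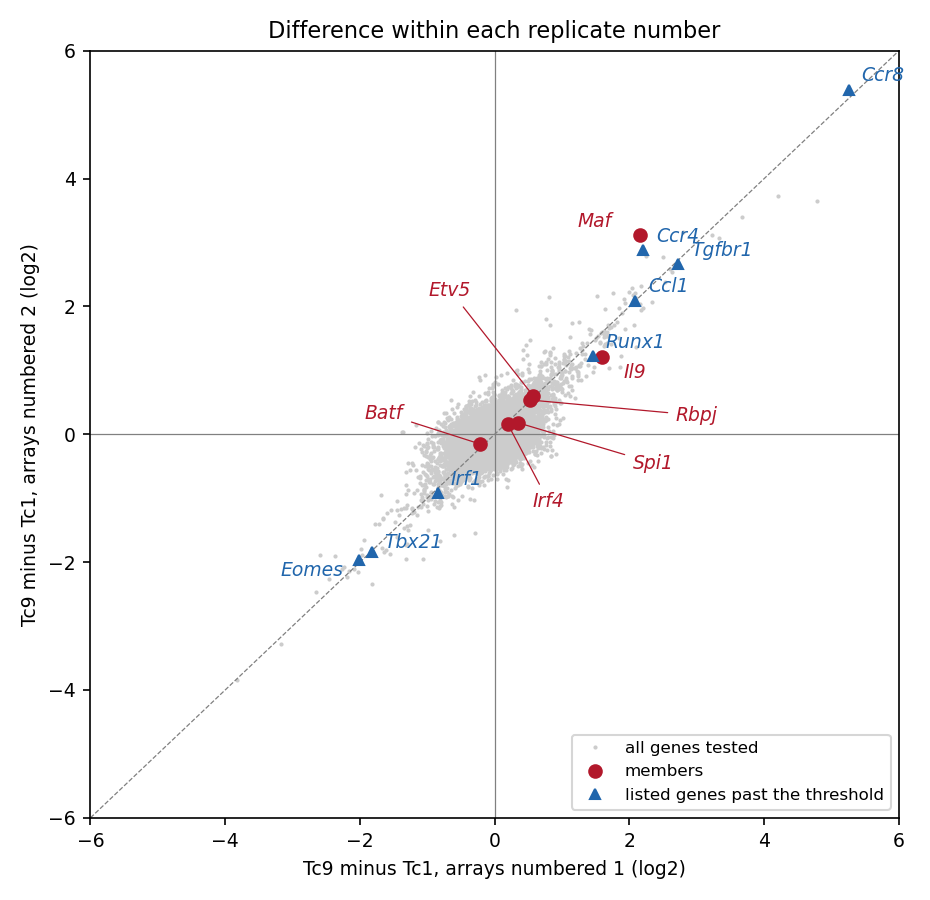
Tc9 minus Tc1 on the log2 scale within the arrays numbered 1 (horizontal) and numbered 2 (vertical) for all 19505 genes tested (grey), the 7 members (red circles) and listed genes past the threshold (blue triangles); the dashed line marks equal differences. Maf lies at 2.15 and 3.11 and Il9 at 1.60 and 1.20, while Rbpj, Etv5, Irf4, Spi1 and Batf lie inside or at the edge of the cloud of all genes.

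Among genes of the signals that induce Il9, 1 of 20 measured rose and 0 fell, against 0.385% and 0.179% of all genes tested. The riser was Tgfbr1, the type I receptor chain for transforming growth factor beta, at 107 and 149 in Tc1, below the detection limit, and 798 and 1026 in Tc9. Its log2 change was 2.69 ± 0.22 (SE; limma adjusted p = 0.00456; 2.73 and 2.66 within the numbers), and against that limit it was at least 4.79-fold higher. With values as deposited its call was lost (limma adjusted p = 0.142). The median of the 20 was 0.25, and 16 had a positive log2 change. Just short of the threshold, and named after their values were seen, were the partner receptor Tgfbr2, at 353 ± 19.1 and 722 ± 4.22 in Tc1 and Tc9 (SD, n = 2; limma adjusted p = 0.0510), and the interleukin 2 transducers Stat5b (601 ± 39.5 and 1130 ± 60.0; adjusted p = 0.0573) and Stat5a (1867 ± 238 and 3622 ± 568; adjusted p = 0.0621). With the array number as a block 9 of the 20 passed as higher and 1 as lower, against 13.7% of all genes tested. Tgfbr2, Stat5a, Stat5b and Il4ra were among the 9. At an unadjusted p under 0.05, 6 of the 20 were higher and 0 lower, against 574 and 456 of the 19505 genes tested. Beside Tgfbr1, Tgfbr2, Stat5a, Stat5b and Il4ra, the sixth was Smad7, a feedback inhibitor of transforming growth factor beta signalling. Smad7 had a log2 change of 1.05 (limma adjusted p = 0.355) and lay below the detection limit on all 4 arrays. The interleukin 4 branch gave smaller steps, with log2 changes of 0.42 for the receptor chain Il4ra (adjusted p = 0.417) and 0.048 for Stat6 (adjusted p = 1.00). Il9r, the receptor for interleukin 9, lay below the detection limit on all 4 arrays.

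Of 11 other factors reported to act for Il9, 0 rose and 1 fell, against 0.385% and 0.179% of all genes tested. Their median log2 change was -0.064. The faller was Irf1, an interferon-induced relative of IRF4, from 1894 and 1827 in Tc1 to 1049 and 954 in Tc9 (log2 change -0.88 ± 0.13, SE; limma adjusted p = 0.0426). Its call was lost with values as deposited, with median centring, with a pseudocount of 64, without the intensity trend, with the robust variance model and without the Tc1 array numbered 1. Just short of the threshold on the other side, and named after its values were seen, was Foxo1, a forkhead factor of naive and memory T cells, at 409 and 503 in Tc1 and 922 and 1102 in Tc9 (log2 change 1.12 ± 0.17, SE; limma adjusted p = 0.0527). At an unadjusted p under 0.05, 2 of the 11 were higher and 2 lower, against 574 and 456 of the 19505 genes tested. Beside Foxo1 the higher gene was Nfatc2 (log2 change 0.52; limma adjusted p = 0.852). Beside Irf1 the lower gene was Irf8 (-0.83; adjusted p = 0.376). With the block 2 of the 11 passed as higher and 3 as lower, against 13.7% of all genes tested.

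Among 8 measured factors reported to restrain Il9, 2 fell and 1 rose, against 0.179% and 0.385% of all genes tested. Their median log2 change was 0.039, and 4 of the 8 lay below the detection limit on all 4 arrays. Eomes, a T-box factor of effector and memory CD8 cells, had a log2 change of -1.98 ± 0.15 (SE; limma adjusted p = 0.00383), and Tbx21, which encodes T-bet, one of -1.83 ± 0.22 (adjusted p = 0.0168). Tbx21 measured 685 and 534 in Tc1 and 182 and 138 in Tc9. It was above the detection limit on 3 of the 4 arrays, so the size of its fall is uncertain. Runx1, a RUNT domain factor of T cell development, rose from 152 and 195 in Tc1 to 445 and 477 in Tc9 (1.34 ± 0.20, SE; adjusted p = 0.0429). Runx1 too was above the detection limit on 3 of the 4 arrays. In Tc9, Eomes (249 and 258), Tbx21 and Runx1 lay below Batf (476 and 508), and so under the limit at the 99th percentile. Bcl6, a zinc finger repressor below the detection limit on all 4 arrays, did not pass, with a log2 change of 0.88 (adjusted p = 0.362). With the array number as a block Bcl6 passed (limma adjusted p = 6.05e-06). Of the 8 factors 2 passed as higher and 2 as lower in that fit, against 13.7% of all genes tested. With values as deposited none of the 3 called genes passed, and without the intensity trend Eomes alone did. Runx1 was also lost with median centring and a pseudocount of 64.

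Of 28 measured family relatives and JUN partners of the members, 0 rose and 1, Irf1, fell, against 0.385% and 0.179% of all genes tested. The median log2 change was 0.0063, and 16 of the 28 lay below the detection limit on all 4 arrays. Jun, Junb and Jund, the partners of BATF, had log2 changes of 0.14, -0.11 and 0.15 (limma adjusted p = 1.00 for each). With the block 2 of the 28 passed as higher and 4 as lower, against 13.7% of all genes tested. At an unadjusted p under 0.05, 1 of the 28 was higher and 4 were lower, against 574 and 456 of the 19505 genes tested. Besides Irf1, the lower genes were Etv6, an ETS repressor, at 1755 and 1699 in Tc1 and 1152 and 1142 in Tc9 (log2 change -0.58; limma adjusted p = 0.169), Irf8 (-0.83; adjusted p = 0.376) and the GATA3 relative Gata2 (-0.66; adjusted p = 0.741), which was below the detection limit on all 4 arrays. The higher gene was the MAF relative Maff, also below it on all 4, with a log2 change of 0.62 (adjusted p = 0.901).

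Around Rbpj, limma called 0 of 21 measured Notch pathway genes, against 0.564% of all genes tested. Of the 21, 11 lay below the detection limit on all 4 arrays. At an unadjusted p under 0.05 there were 0 higher and 1 lower, against 574 and 456 of the 19505 genes tested. The fit with the block called 2 in each direction, against 13.7% of all genes tested. The median was 0.048. The smallest p belonged to Maml2, a coactivator that joins RBPJ and Notch on DNA, at 197 ± 13.9 in Tc1 and 125 ± 2.74 in Tc9 (SD, n = 2; log2 change -0.60; limma adjusted p = 0.687). It was followed by Nrarp, a Notch target that feeds back on the pathway, at 29.5 ± 5.64 and 48.2 ± 11.9 (0.49; adjusted p = 1.00), below the detection limit on all 4 arrays.

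Of 12 measured type 2 genes known as targets of GATA3, MAF or IRF4, 3 rose and 0 fell. Of all genes tested 0.385% rose and 0.179% fell, but the list was chosen with earlier results of these data known. Ccr8, a chemokine receptor of type 2 and regulatory T cells, measured 15.2 and 22.0 in Tc1 and 1176 and 1578 in Tc9, at least 7.16-fold higher against the detection limit (limma adjusted p = 0.000371). Ccl1, the gene of its ligand, had a log2 change of 2.09 ± 0.13 (SE; limma adjusted p = 0.00188), and Ccr4, which guides T cells to skin, one of 2.54 ± 0.21 (adjusted p = 0.00477). With values as deposited Ccr8 passed and the other two did not. The cytokine genes Il4, Il5, Il13, Il10, Il21 and Il24 had log2 changes from -0.20 to 0.081 and lay below the detection limit on all 4 arrays, as did 9 of the 12 in all. The other listed cytokine genes, also below it on all 4 arrays, had larger steps that did not pass: Il3, a growth factor of blood cells, measured 82.2 and 142 in Tc1 and 30.8 and 24.8 in Tc9 (log2 change -1.51; limma adjusted p = 0.128), and Csf2, the gene of the growth factor GM-CSF, measured 48.9 and 44.2 in Tc1 and 17.7 and 32.9 in Tc9 (-0.62; adjusted p = 0.814). With the block 3 of the 12 passed as higher and 2 as lower, against 13.7% of all genes tested. The median of the 12 was -0.052, on the other side of 0 from the 3 risers.

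**Figure D3:**
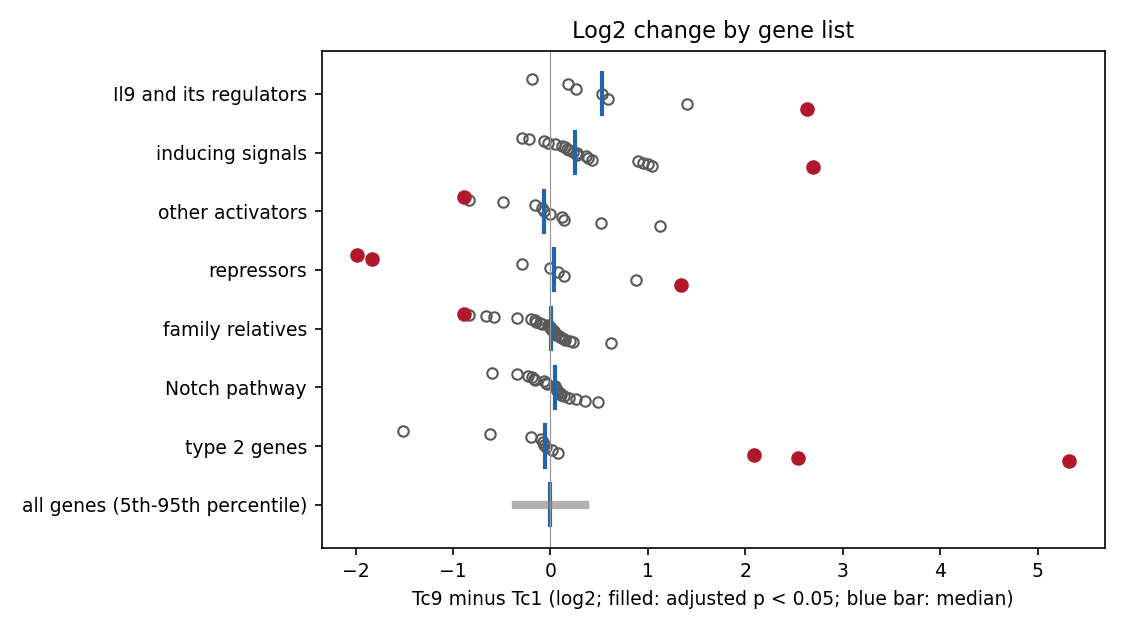
Log2 change, Tc9 minus Tc1, of each measured gene in 7 gene lists, with filled red points for genes past the adjusted threshold, open points for the others and blue bars for list medians; the bottom line spans the 5th to 95th percentile of all genes tested, -0.35 to 0.35. The members' median of 0.53 lies to the right of the list medians, and the type 2 list holds 3 genes past 2 beside a median of -0.052.

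The genes most like Il9 and Maf over the 4 arrays were sought by the root mean square difference of centred log2 values among 7325 genes above the detection limit on at least 2 arrays. For Il9 these were Klf2, a factor of T cell quiescence and trafficking (difference 0.014, log2 change 1.39), Lax1, an adaptor of antigen receptor signalling (0.046, 1.41), and Igf1r, the receptor for insulin-like growth factor 1 (0.069, 1.26). For Maf these were Ccr4 (0.091, 2.54), Syp, a synaptic vesicle protein (0.23, 2.98), and Ldlrad4, an inhibitor of transforming growth factor beta signalling (0.25, 2.59). With 4 arrays such likeness mainly reflects a similar step between the groups, and it is given with no test.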

How the data were processed

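The authors deposited 1 intensity per probe set and array, on a linear scale as read from the values. The sources used here name no background correction, summarization, software or genome build. Controls (6640 of 28846 probe sets, 5222 of them negative controls) were left out of normalization and tests. Of the other 22206, the platform annotation named 19572. The probe set with the highest mean stood for each gene, and 55 genes had several.

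Because array medians of named probe sets differed by 0.543 on the log2 scale, above a set limit of 0.5, the deposited intensity values were quantile normalized, 16 was added and log2 taken. limma 3.58.1 in R 4.3.3 (lmFit, eBayes with an intensity trend) tested Tc9 against Tc1 over all genes with Benjamini-Hochberg adjustment at 0.05, on 2 residual and 5.08 prior degrees of freedom. Tested on simulated data of 19505 genes, the fit called 3 of 100 genes changed by a log2 size of 1 and 56 of 100 changed by 2. The simulated arrays varied independently, unlike the real arrays of the same number (correlation 0.729), so these counts need not hold for the real data. A gene counted as above background on an array when its deposited intensity exceeded the 95th percentile of that array's negative controls. Bounds ("at least") set the brighter group against that percentile, or the gene's own signal where higher. The rule named the members, up to 4 called genes per direction in each list, or the 2 smallest p where none passed. Other list genes were named after their values were seen. The members and lists were chosen with earlier results of these data known. The labels give both groups the numbers 1 and 2 but do not say that they pair samples. Deviations from the group means correlated at 0.729 across genes between arrays of the same number. Promoter sequences matched 6 of the 8 members. Alternatives were the deposited scale, median centring, other pseudocounts, filters on dim genes, other variance models, the number as a block, the mean of a gene's probe sets and leaving out each array.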

Additional observations from a re-analysis of the deposited data

How the results depend on the processing

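Of 95 recomputed log2 changes of single members, 85 kept their direction and side of the threshold, 7 passed in addition, 1 no longer passed and 2 turned sign. All genes passing numbered 110, against 16 with values as deposited, 52 with median centring, 56 without the intensity trend, 2674 with the replicate number as a block, and 184 to 278 without any 1 array, the highest without the Tc9 array numbered 2. Members passing numbered 1, against 2 with a filter at the 25th percentile, 0 without the trend, 5 with the replicate block, and 1 to 2 without any 1 array. The log2 change of Il9, 1.40, passed with that filter (limma adjusted p = 0.0455) and with the replicate block, and without the Tc9 array numbered 1 (0.0235) or 2 (0.00163), where the lone Tc9 array is assumed to vary like the Tc1 arrays; it spanned 1.30 to 1.48 without any 1 array and was 1.84 with a pseudocount of 1 and 0.81 with a pseudocount of 64. With the replicate block Irf4 (0.18), Etv5 (0.59) and Rbpj (0.53) passed. Maf, at 2.63, missed the threshold without the trend and ranged from 2.18 to 3.10 without any 1 array. Spi1 ranged from -0.36 to 0.85 without any 1 array. The causes were not tested. The filter on 2 arrays above the negative controls removed Il9, Spi1 and Etv5. At the 99th percentile of the negative controls Maf was not above it in Tc9, so no bound was had.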
